A study of Sus scrofa with 16 samples.

Results

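Chemokines are small secreted proteins that direct white blood cells through tissue, and cytokines are the wider family of signalling proteins to which they belong. A set of 6 genes of these families, measured by 9 probe sets, is described here over the small intestine of preterm piglets: CXCL8 and AMCF-II, which are inducible chemokines, CXCL13 and CCL25, which are homeostatic chemokines, and the cytokines TNF and IL18. The members are all the probe sets annotated with 1 of these 6 symbols, 9 of 24123 on the array. All 9 passed the filter on dim probe sets (a log2 value above 5 on at least 4 of 16 arrays), as did 11538 probe sets in all, for 4684 genes. AMCF-II has 3 probe sets, CXCL13 has 2, and the other 4 genes have 1 each, and probe sets of 1 gene are readings of the same gene and not replicates.

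The arrays come from crossbred piglets (Landrace x Large white x Duroc) of 2 sows, born by caesarean on gestation day 105 and killed on day 5. Antibiotics piglets received ampicillin, gentamycin and metronidazol by mouth and by intramuscular injection, 2 times a day from birth. Control piglets received saline on the same plan. Every piglet was fed parenterally for 3 days, with a little enteral feed, and then enteral formula by tube for 2 days. RNA came from whole small intestinal tissue, and the wall layers taken are not stated. The 4 groups hold 4 arrays each: antibiotics distal intestine (piglets 85, 86, 87 and 95), control distal intestine (83, 88, 89 and 92), antibiotics proximal intestine (86, 87, 95 and 98) and control proximal intestine (83, 88, 89 and 92). The number in a sample's name is read here as the piglet's, so 7 piglets, 3 on antibiotics and 4 controls, were measured in both segments. The study held 24 piglets, and the labels used here give neither litter nor lesions for a single piglet.

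CXCL8, also known as interleukin 8, and AMCF-II, whose name stands for alveolar macrophage chemotactic factor, draw neutrophils into tissue. CXCL8 is made by epithelial cells and macrophages when bacterial products or cytokines activate NF-kB. CXCL13 is made by stromal cells of lymphoid follicles and guides B cells through the receptor CXCR5, and CCL25 is made by the small intestinal epithelium and guides lymphocytes that carry CCR9 into the gut wall. TNF is an early inflammatory cytokine, and IL18 is held as a precursor in epithelial cells until caspase 1 cleaves it. In the RefSeq annotation of Sscrofa11.1, CXCL8 and AMCF-II are neighbouring genes, and TNF lies between LTA and LTB.

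Values are the deposited log2 values, so a difference of 1 is a doubling, and differences between groups were fitted with limma over all 16 arrays and adjusted by the Benjamini-Hochberg method over all 11538 probe sets, with a threshold of 0.05. Arrays were alike in the share of probe sets above the filter level, 45.1% to 46.5%, and arrays of the same group correlated at 0.878 to 0.981. The 5′ minus 3′ difference of control probe sets, a measure of RNA quality, was less even. Its medians were -4.28 in antibiotics distal, -4.01 in control distal, -3.38 in antibiotics proximal and -3.75 in control proximal tissue. With it as a covariate, 406 probe sets passed between the segments of antibiotics piglets, against 606 without it. The epithelial marker VIL1 lay between 12.37 and 13.44 on every array, and the ileal bile acid binding gene FABP6 was high in distal tissue. One array stood apart in FABP6: the control proximal array of piglet 88 read 7.40, against 2.28 to 3.49 on the other 7 proximal arrays. In the proximal marker GATA4 the same array did not stand apart. It read 5.63, within the 4.89 to 6.39 of the other control proximal arrays. Proximal values that pass the threshold, or move by over 1.5 times, without this array are given with and without it for the members.

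CXCL8 was the member with the clearest response to antibiotics, and it was lower in both segments. In the distal intestine it read 9.53, 10.06, 9.53 and 10.01 in antibiotics piglets 85, 86, 87 and 95, against 12.84, 11.26, 13.15 and 13.26 in control piglets 83, 88, 89 and 92. The groups did not overlap: the highest antibiotics array lay 1.2 below the lowest control array, that of piglet 88. The means were 9.78 ± 0.29 in antibiotics and 12.63 ± 0.93 in control distal tissue (SD, n = 4 each), a log2 difference of -2.85 (SE 0.63, 95% interval -4.18 to -1.52), or 7.20-fold lower. CXCL8 fell in limma's test with an adjusted p of 0.0270. It was the only member gene of 6 past the threshold in this comparison at its brightest probe set, where 2.12% of all probe sets tested passed in either direction.

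In the proximal intestine CXCL8 read 8.86, 10.54, 11.35 and 11.50 in antibiotics piglets 86, 87, 95 and 98, against 13.77, 11.77, 12.54 and 14.45 in control piglets 83, 88, 89 and 92. Here too the groups did not overlap, with a gap of 0.27 between the highest antibiotics array and the control array of piglet 88. The means were 10.56 ± 1.21 and 13.13 ± 1.2 (antibiotics and control, SD, n = 4 each), a difference of -2.57 (SE 0.63, 95% interval -3.90 to -1.24) that missed the threshold with limma's adjusted p of 0.110. No member gene passed limma's test in the proximal intestine, where 0.147% of all probe sets did, and 2 had an unadjusted p under 0.05 (CXCL8 and CXCL13), as did 12.9% of all probe sets. Without the control proximal array of piglet 88, the CXCL8 difference was -3.02 and passed (limma's adjusted p = 0.0145). That array stood apart in FABP6 but not in GATA4, and was also the lowest control in CXCL8. The fit without it called 556 probe sets in all, against 17 with the array.

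The antibiotic effect on CXCL8 differed by only -0.28 between the segments (distal minus proximal, 95% interval -2.15 to 1.60, limma's adjusted p = 0.974), and by 0.18 without control proximal piglet 88. On 1 mean per piglet over both segments CXCL8 was 10.06 in 3 antibiotics and 12.88 in 4 control piglets, with a difference of -2.82 (SE 0.53, limma's adjusted p = 0.0768). No member gene passed limma's test on piglet means, against 0.347% of all probe sets, and 3 had an unadjusted p under 0.05 (CXCL8, AMCF-II and CXCL13), against 16.1%. The distal call was not stable to leaving out an array: it held in 1 of 8 fits with an array left out (without control piglet 88, -3.30, adjusted p = 0.0103) and missed the threshold in the other 7, at adjusted p from 0.0615 to 0.101, with differences of -2.94 to -2.64. It was also lost with no filter on dim probe sets (adjusted p = 0.104) and with only the piglets measured in both segments (-2.76, adjusted p = 0.0736).

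**Figure D1:**
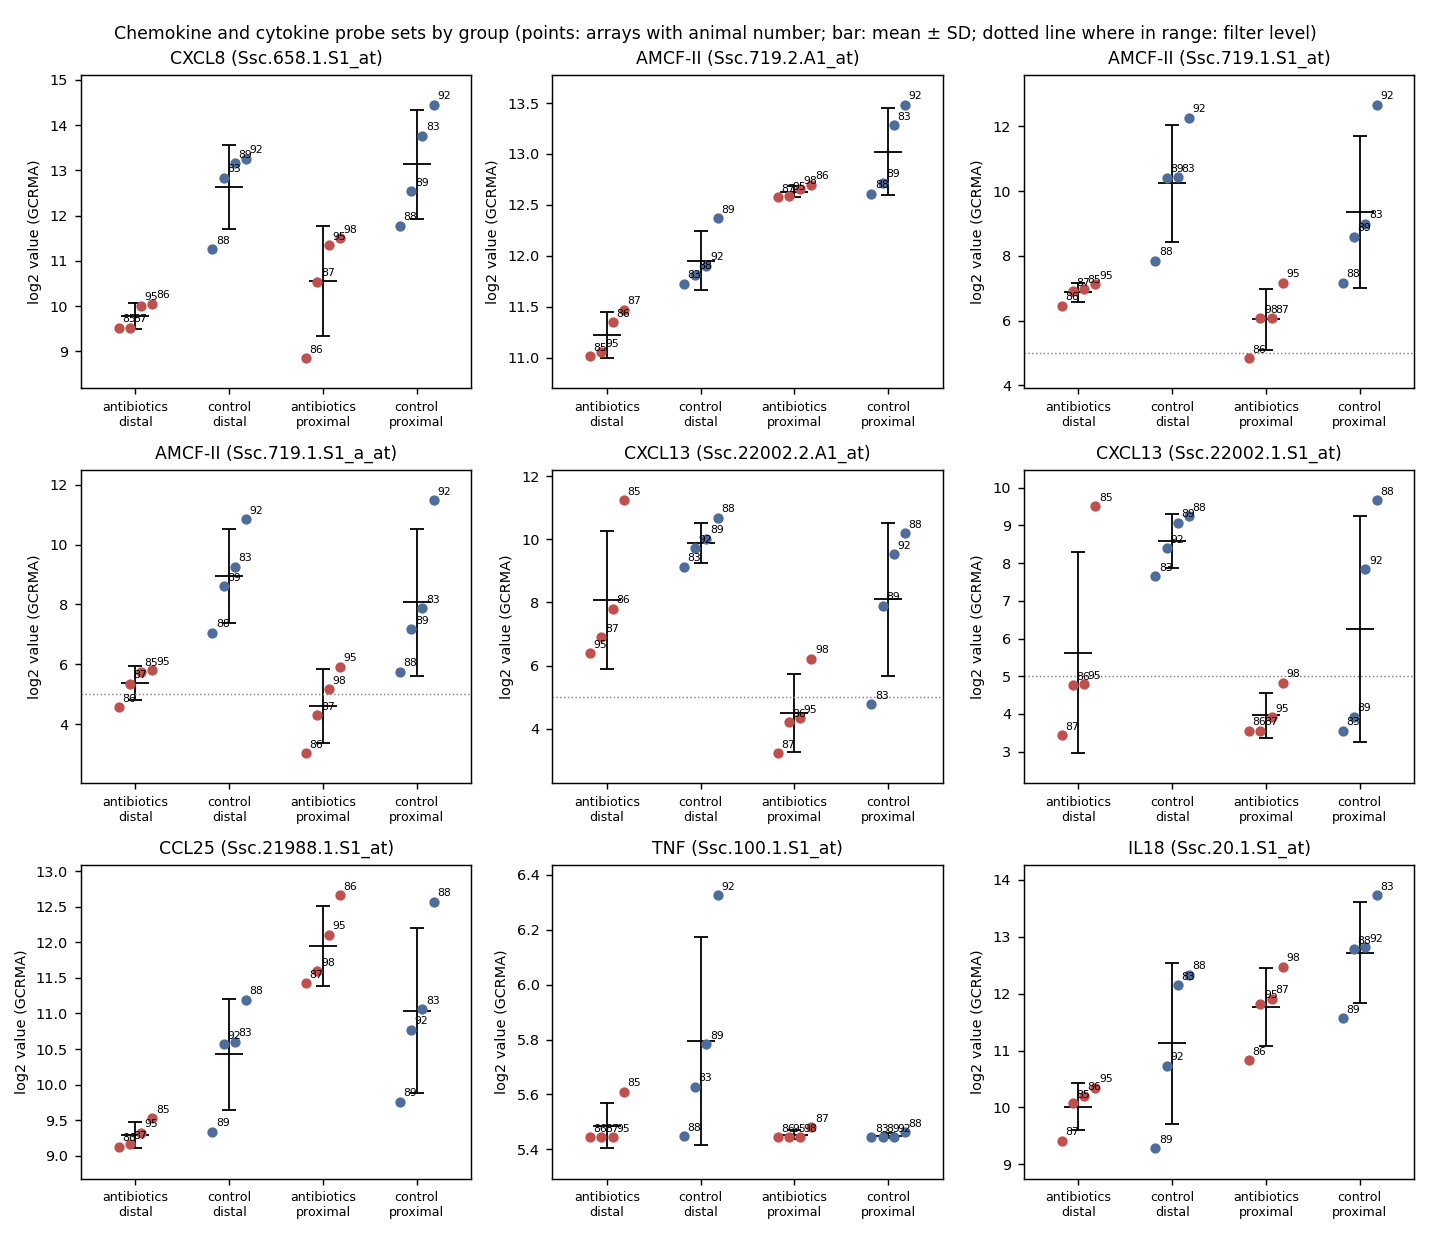
Log2 value of each of the 9 probe sets (y axes, scaled per panel) in the 4 groups (x axes), 1 point per array with the piglet's number (antibiotics red, control blue), and the mean with its SD as a bar, with the probe sets of a gene in order of brightness. CXCL8 in antibiotics distal tissue sits between 9.53 and 10.06, below all 4 control distal arrays, and CCL25 in antibiotics piglets is at a mean of 9.28 in distal and 11.95 in proximal tissue.

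AMCF-II was read by 3 probe sets that differ in their pattern. The brightest was high on all 16 arrays and its groups differed little with antibiotics. In the distal intestine it read 11.01, 11.35, 11.47 and 11.05 in antibiotics piglets 85, 86, 87 and 95, against 11.73, 11.81, 12.37 and 11.90 in control piglets 83, 88, 89 and 92. These groups did not overlap, by 0.26, and the difference was -0.73 (SE 0.23, 95% interval -1.21 to -0.25, limma's adjusted p = 0.113). In the proximal intestine the groups overlapped, with means of 12.63 ± 0.06 in antibiotics and 13.02 ± 0.43 in control tissue (SD, n = 4 each) and a difference of -0.39 (limma's adjusted p = 0.504).

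The other probe sets of AMCF-II gave much larger differences. The middle one in brightness read 6.98, 6.46, 6.91 and 7.13 in antibiotics distal tissue of piglets 85, 86, 87 and 95, against 10.43, 7.85, 10.41 and 12.27 in control distal tissue of piglets 83, 88, 89 and 92. The antibiotics arrays lay close together, at an SD of 0.29, while the controls had an SD of 1.81, and the groups did not overlap. The difference was -3.37 (SE 0.98, 95% interval -5.45 to -1.30, limma's adjusted p = 0.0900), or 10.4-fold. The dimmest probe set differed by -3.58 (SE 1.01, limma's adjusted p = 0.0805), with 4.56 to 5.80 in antibiotics and 7.06 to 10.85 in control distal tissue, again without overlap. Without control distal piglet 88, the lowest control, both passed, at -4.17 (limma's adjusted p = 0.0290) and -4.21 (limma's adjusted p = 0.0423). That was 1 of 8 fits with an array left out, and both missed the threshold in the rest, with limma's adjusted p up to 0.269 and 0.249. The mean of the 3 probe sets differed by -2.56 in distal (limma's adjusted p = 0.0608) and -2.39 in proximal tissue (limma's adjusted p = 0.139).

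In the proximal intestine the middle and dimmest AMCF-II probe sets differed by -3.32 and -3.46 (limma's adjusted p = 0.183 and 0.181), and their groups touched at the control array of piglet 88. The middle one read 4.85 to 7.17 in antibiotics and 7.17 to 12.66 in control proximal tissue. Without that control array both passed, at -4.05 (limma's adjusted p = 0.0287) and -4.24 (limma's adjusted p = 0.0252). This too was 1 of 8 fits with an array left out, and limma's adjusted p reached 0.507 and 0.504 in the rest. Over the 16 arrays, which share piglets, these 2 probe sets followed each other (Pearson r = 0.991) and CXCL8 (r = 0.857 and 0.870), and followed the brightest AMCF-II probe set far less (r = 0.230 and 0.234). Which reading stands for AMCF-II was not settled from the sources used here, since no probe sequences were given.

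Counted over probe sets, the 4 of the inducible members did not overlap between treatments in the distal intestine, all with antibiotics lower. They are 1 probe set of CXCL8 and 3 of AMCF-II, so the count stands for 2 genes and not for 4 separate members. Of all probe sets tested, 6.31% were lower without overlap in distal tissue. In the proximal intestine 1 of these 4, CXCL8, was lower without overlap, against 1.74% of all probe sets. Distal groups of the 2 homeostatic genes and the 2 cytokines overlapped at all 5 of their probe sets.

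CXCL13, the B cell chemokine, was lower on average in antibiotics piglets in both segments, with a wide spread. At its brighter probe set antibiotics distal tissue read 11.25, 7.80, 6.89 and 6.40 in piglets 85, 86, 87 and 95, against 9.13, 10.68, 10.02 and 9.71 in control piglets 83, 88, 89 and 92. Antibiotics piglet 85 had the highest value of all 16 arrays, and the other 3 antibiotics piglets lay below every control. The difference was -1.80 (SE 1.11, 95% interval -4.16 to 0.55, limma's adjusted p = 0.472). Leaving piglet 85 out moved it to -2.86, still short of the threshold at an adjusted p of 0.228.

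In proximal tissue CXCL13 read 4.21, 3.22, 4.33 and 6.22 in antibiotics piglets 86, 87, 95 and 98, against 4.77, 10.20, 7.90 and 9.52 in control piglets 83, 88, 89 and 92. Control piglet 83 lay among the antibiotics piglets, and the other 3 controls lay above all of them. The difference was -3.60 (SE 1.11, 95% interval -5.96 to -1.25, limma's adjusted p = 0.196). On piglet means, which leave out piglets 85 and 98, each measured in 1 segment, it was -3.52 (95% interval -5.17 to -1.86, limma's adjusted p = 0.0861). The dimmer CXCL13 probe set differed by -2.96 in distal (limma's adjusted p = 0.266) and -2.28 in proximal tissue (limma's adjusted p = 0.492), was above the filter level on 7 of 16 arrays, and lay under it on all 4 antibiotics proximal arrays. Without control proximal piglet 88 the dimmer set differed by -1.14 in proximal tissue.

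CCL25, the epithelial chemokine, pointed in different directions in the 2 segments. In distal tissue it read 9.52, 9.13, 9.16 and 9.32 in antibiotics piglets 85, 86, 87 and 95, against 10.61, 11.19, 9.34 and 10.57 in control piglets 83, 88, 89 and 92. Control piglet 89 lay within the antibiotics range and the other 3 controls lay above it. In proximal tissue CCL25 read 12.66, 11.42, 12.11 and 11.59 in antibiotics piglets 86, 87, 95 and 98, against 11.06, 12.57, 9.76 and 10.77 in control piglets 83, 88, 89 and 92, and here 3 of the 4 controls lay below every antibiotics piglet.

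The CCL25 difference between treatments was -1.14 in distal (SE 0.49, limma's adjusted p = 0.264) and 0.91 in proximal tissue (SE 0.49, limma's adjusted p = 0.469), and neither passed. Without control proximal piglet 88 the proximal difference was 1.42 (limma's adjusted p = 0.0693), and without control proximal piglet 89 it was 0.48. The difference between these effects was -2.05 (SE 0.70, 95% interval -3.53 to -0.57), with an unadjusted p of 0.00980 in limma and an adjusted p of 0.479, and without control proximal piglet 88 it was -2.56 (limma's adjusted p = 0.0721). No member gene passed this limma test of the segments, against 0.191% of all probe sets, and CCL25 was the 1 member gene with an unadjusted p under 0.05, against 6.62%. In each piglet with both segments, CCL25 was lower in distal than in proximal tissue: by -3.54, -2.26 and -2.78 in antibiotics piglets 86, 87 and 95, and by -0.46, -1.38, -0.42 and -0.20 in control piglets 83, 88, 89 and 92. The 3 antibiotics piglets all had larger segment differences than the 4 controls (two-sided exact permutation p = 0.0286, the smallest that 3 against 4 piglets allow). The permutation was run on the member probe sets alone, so the share of all probe sets that separate in this way is not known. Fitted with limma on these piglet differences and adjusted over all probe sets, the CCL25 difference of -2.24 had an adjusted p of 0.169.

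**Figure D2:**
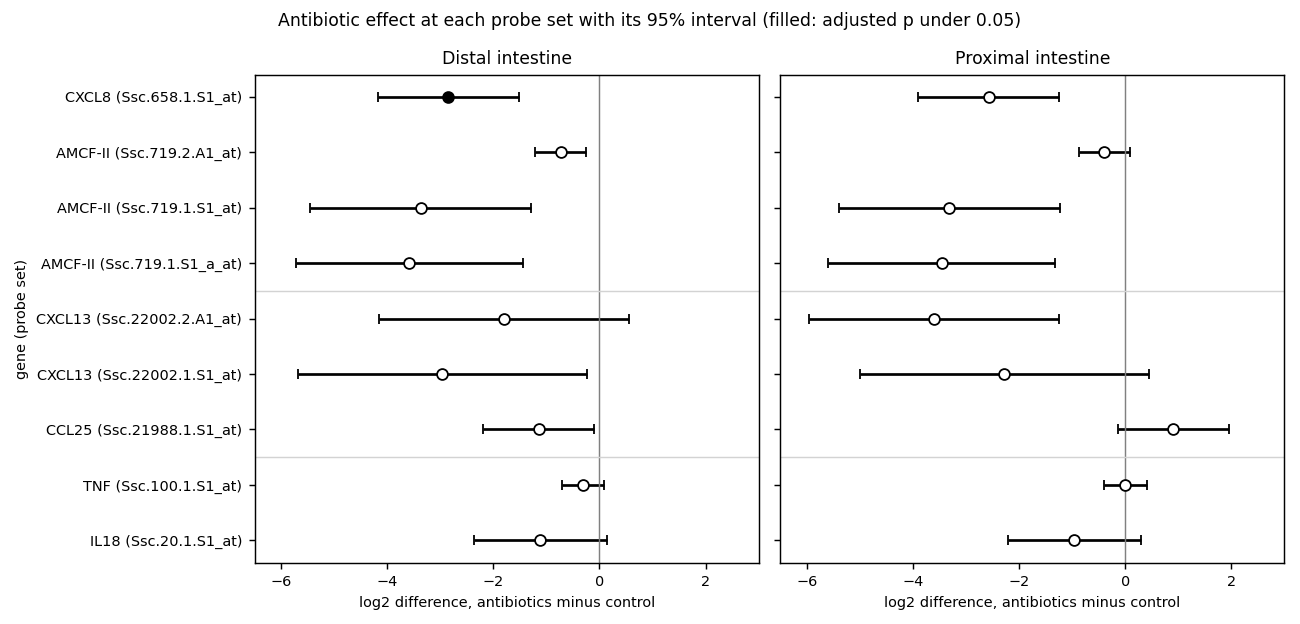
Log2 difference, antibiotics minus control (x axes), at each of the 9 probe sets (y axis) in the distal and the proximal intestine, with 95% intervals from limma over 16 arrays. CXCL8 in distal tissue, at -2.85, is the only filled point (adjusted p under 0.05); CCL25 is at -1.14 in distal and 0.91 in proximal tissue.

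TNF was close to its lowest reading nearly everywhere. On 12 of 16 arrays it was within 0.05 of its lowest value, 5.45, and it passed the filter only because that value is itself above the filter level. The exceptions were antibiotics distal piglet 85 at 5.61, against control distal piglets 83, 89 and 92 at 5.63, 5.78 and 6.33. The distal difference was -0.31 (SE 0.19, limma's adjusted p = 0.468), and the proximal groups averaged 5.45 each. A change in TNF below this level was not detectable here.

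IL18 was bright on every array and lower on average with antibiotics, with groups that overlapped in both segments. In distal tissue it read 10.08, 10.21, 9.41 and 10.34 in antibiotics piglets 85, 86, 87 and 95, against 12.15, 12.33, 9.28 and 10.73 in control piglets 83, 88, 89 and 92. In proximal tissue it read 10.83, 11.91, 11.82 and 12.47 in antibiotics piglets 86, 87, 95 and 98, against 13.73, 12.78, 11.57 and 12.82 in control piglets 83, 88, 89 and 92. Control piglet 89 was the lowest of the controls in both segments. The differences were -1.11 (SE 0.59, limma's adjusted p = 0.393) in distal and -0.96 (SE 0.59, limma's adjusted p = 0.539) in proximal tissue. With an array left out they ran from -1.73 (without control piglet 89) to -0.71 (without control piglet 88) in distal and from -1.35 (without control piglet 89) to -0.63 (without control piglet 83) in proximal tissue, and none passed.

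Along the intestine, 2 member genes were lower in distal than in proximal tissue of antibiotics piglets, CCL25 and AMCF-II, in a comparison in which 5.25% of all probe sets passed. CCL25 averaged 9.28 ± 0.18 in distal and 11.95 ± 0.56 in proximal tissue of antibiotics piglets (SD, n = 4 each), a difference of -2.66 (SE 0.49, 95% interval -3.71 to -1.62, limma's adjusted p = 0.00461), or 6.33-fold. AMCF-II at its brightest probe set averaged 11.22 ± 0.22 in distal and 12.63 ± 0.06 in proximal tissue, a difference of -1.41 (SE 0.23, limma's adjusted p = 0.00186). Its other probe sets differed by 0.83 and 0.76 and overlapped, so the AMCF-II gradient was seen at the brightest probe set and not at the others, and with the mean of the 3 it was 0.06 (limma's adjusted p = 0.976). Both calls held in all 8 fits with an array left out.

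In control piglets no member gene passed limma's test between the segments, against 0.364% of all probe sets, and 2 had an unadjusted p under 0.05 (AMCF-II and IL18), against 7.99%. CCL25 differed by -0.61 (SE 0.49, limma's adjusted p = 0.889), with means of 10.43 ± 0.78 in distal and 11.04 ± 1.16 in proximal tissue (SD, n = 4 each), and by -0.10 without proximal piglet 88. AMCF-II at its brightest probe set differed by -1.07 (SE 0.23, limma's adjusted p = 0.0611), without overlap, where 1.98% of all probe sets were lower in this way. Its middle and dimmest probe sets differed by 0.89 and 0.88 and overlapped (0.16 and 0.10 without proximal piglet 88), and the mean of the 3 differed by 0.23. At the brightest set the difference passed with the piglet as a random block (-1.07, limma's adjusted p = 0.0264), did not pass with the piglet as a fixed block (limma's adjusted p = 0.171), and passed in 3 of 8 fits with an array left out (-1.21 to -1.17, limma's adjusted p = 0.0305 to 0.0427), those without distal piglet 89, proximal piglet 88 or proximal piglet 89.

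CXCL13 had the opposite gradient, higher in distal tissue, in every piglet with both segments at its brighter probe set. In antibiotics piglets 86, 87 and 95 the distal minus proximal difference was 3.59, 3.67 and 2.06, and in control piglets 83, 88, 89 and 92 it was 4.36, 0.48, 2.11 and 0.19. Over the 4 arrays a segment the antibiotics difference was 3.59 (SE 1.11, 95% interval 1.23 to 5.94, limma's adjusted p = 0.0783), without overlap, where 7.69% of all probe sets were higher in this way. With the piglet as a block it passed (random, 3.52, adjusted p = 0.0473; fixed, 3.11, adjusted p = 0.0494). The control difference was 1.79 (SE 1.11, limma's adjusted p = 0.80). The dimmer CXCL13 probe set was lower in distal tissue in antibiotics piglet 87 (-0.11) and control piglet 88 (-0.43), and differed by 1.66 in antibiotics (limma's adjusted p = 0.581) and 2.34 in control piglets (limma's adjusted p = 0.745; 3.48 without proximal piglet 88), with overlap in both.

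IL18 was lower in distal tissue by -1.75 in antibiotics piglets (SE 0.59, limma's adjusted p = 0.114), without overlap, where 4.7% of all probe sets were lower in this way, and by -1.60 in control piglets (SE 0.59, limma's adjusted p = 0.416). All 7 piglets with both segments showed this direction. The antibiotics difference passed in 2 alternatives, with only the arrays of the groups compared (-1.75, limma's adjusted p = 0.0217) and with array quality weights (-1.59, limma's adjusted p = 0.0100). CXCL8 did not differ beyond its spread between segments, at -0.78 in antibiotics (SE 0.63, 95% interval -2.11 to 0.55, limma's adjusted p = 0.597) and -0.51 in control piglets (SE 0.63, 95% interval -1.83 to 0.82, limma's adjusted p = 0.957; -0.96 without proximal piglet 88). In the order of its group means, CXCL8 was lowest in antibiotics distal, then antibiotics proximal, control distal and control proximal tissue, and neighbours within a treatment overlapped.

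**Figure D3:**
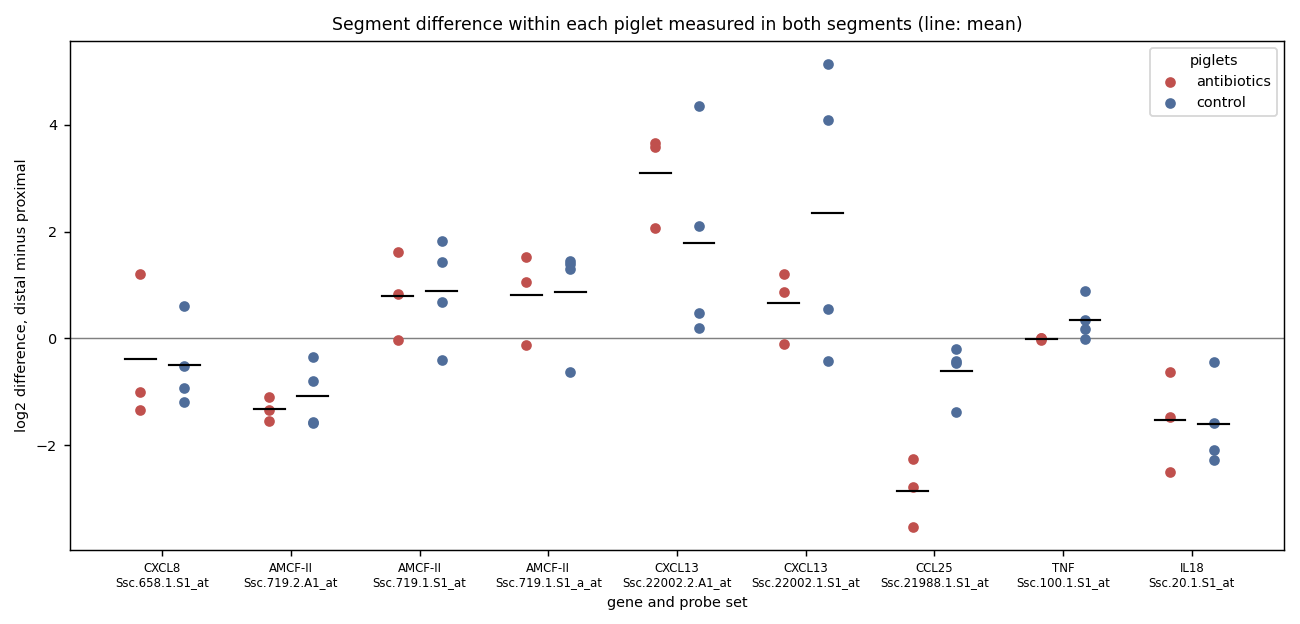
Distal minus proximal log2 difference (y axis) at each probe set (x axis) for the 3 antibiotics and 4 control piglets measured in both segments, 1 point per piglet, with a line at each mean. CCL25 differences run from -3.54 to -2.26 in antibiotics piglets and from -1.38 to -0.20 in controls.

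Set side by side, the inducible members differed by -2.85 (CXCL8) and -0.73 (AMCF-II, brightest probe set) in distal tissue, and the homeostatic members by -1.80 (CXCL13) and -1.14 (CCL25). In proximal tissue the inducible members differed by -2.57 and -0.39, and the homeostatic ones by -3.60 and 0.91. These are values of the brightest probe sets. The middle and dimmest AMCF-II probe sets differed by -3.37 and -3.58 in distal and by -3.32 and -3.46 in proximal tissue. For the dimmer CXCL13 probe set the differences were -2.96 in distal and -2.28 in proximal tissue. The order of the members thus depends on the probe set, and which one stands for AMCF-II was not settled. The 2 kinds were not tested against each other.

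Chemokines of both kinds were also counted from wider lists, which include the members CXCL8, AMCF-II, CXCL13 and CCL25. These counts are therefore not independent of the members' own values. Of 21 inducible chemokines listed, 10 had a probe set and 8 were tested. All 8 had a negative difference in distal tissue, as did 49.6% of all probe sets. Of these 1 (CXCL8) fell, against 2.12% of all probe sets, and 4 had an unadjusted p under 0.05, against 15.8%. The median of the 8 was -1.34, against 0.02 over all genes tested. CXCL2, another neutrophil chemokine, lay under the filter level on all 4 antibiotics distal arrays (2.91 to 3.12), against 3.33 to 8.72 in control distal tissue, a difference of -3.64 (SE 1.25, limma's adjusted p = 0.158). CXCL2 was above the filter level on no antibiotics array of either segment, so it was tested only because of its control values. The filter thus favours its part in the counts and medians of both segments. In proximal tissue 6 of the 8 were negative, against 56.8% of all probe sets, and none passed limma's test. An unadjusted p under 0.05 was found for 2, against 12.9% of all probe sets. The proximal median was -0.57, against -0.06 over all genes tested.

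Of 8 homeostatic chemokines 5 were tested. In distal tissue 4 were negative (against 49.6% of all probe sets), none passed, and 2 had an unadjusted p under 0.05 (against 15.8%). The median of the 5 was -1.14, which is the value of the member CCL25 itself. CCL19, which guides T cells and dendritic cells in lymphoid tissue, averaged 3.21 ± 2.00 in antibiotics and 7.85 ± 3.98 in control distal tissue (SD, n = 4 each; -4.64, SE 1.87, limma's adjusted p = 0.235), and its lowest readings were near the floor of the data. In proximal tissue 2 of the 5 were negative (against 56.8% of all probe sets), none passed, 3 had an unadjusted p under 0.05 (against 12.9%), and the median was 0.12. CCL19 was above the filter level on no antibiotics proximal array, so the filter favours its part in these counts. CXCL14, an epithelial chemokine, averaged 11.79 ± 0.32 in antibiotics and 10.70 ± 0.93 in control proximal tissue (1.08, SE 0.42, limma's adjusted p = 0.315).

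**Figure D4:**
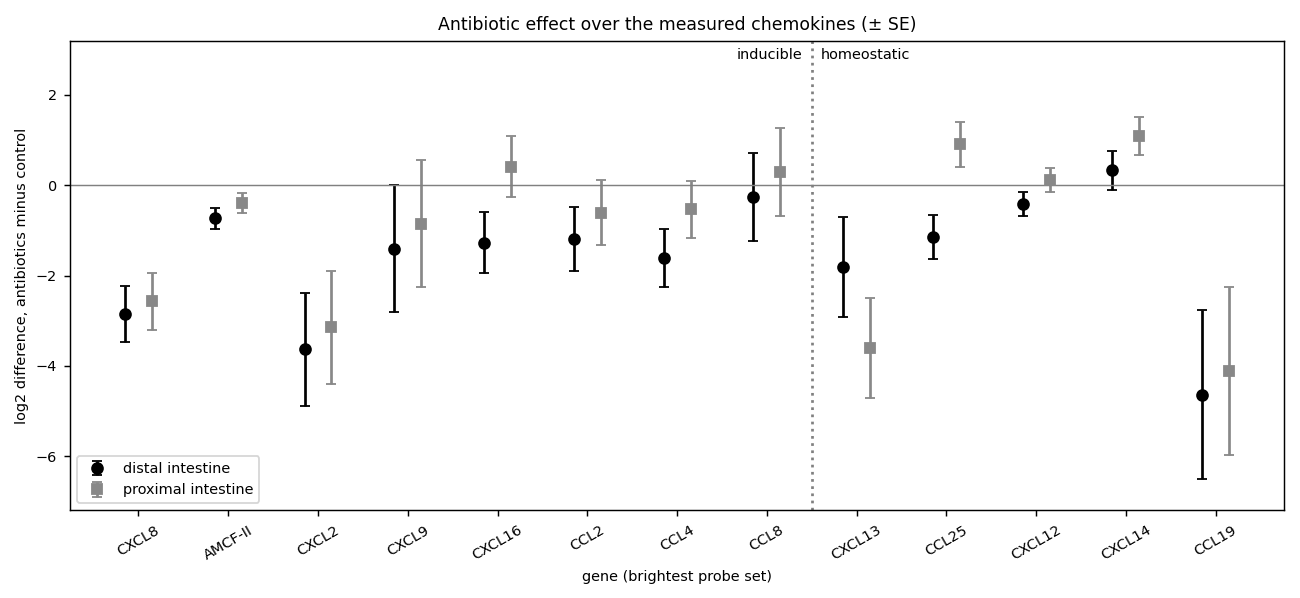
Log2 difference, antibiotics minus control (y axis), with its SE, for the 8 inducible and 5 homeostatic chemokines tested (x axis, brightest probe set of each gene), in distal (circles) and proximal tissue (squares). All 8 inducible chemokines are below 0 in distal tissue, and CXCL14 is above 0 in both segments. CXCL2 was above the filter level on no antibiotics array, so the filter favours its place below 0.

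Few receptors of these ligands were measured. CCR9, the receptor of CCL25, was under the filter level on every array, and CXCR1, CXCR2 and CXCR5 had no annotated probe set. Of 21 receptors listed 2 were tested, and none passed in either segment. In each segment 1 had an unadjusted p under 0.05, against 15.8% of all probe sets in distal and 12.9% in proximal tissue. CXCR4, the receptor of CXCL12, averaged 7.88 ± 0.70 in antibiotics and 9.13 ± 1.0 in control distal tissue (-1.25, SE 0.44, limma's adjusted p = 0.162), and 7.48 ± 0.25 and 9.31 ± 0.46 in antibiotics and control proximal tissue (-1.84, SE 0.44, limma's adjusted p = 0.103).

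On the TNF and NF-kB axis 11 of 30 genes were tested. In distal tissue 1 fell, against 2.12% of all probe sets, and 3 had an unadjusted p under 0.05, against 15.8%. The 1 that fell was TNFRSF1B, a TNF receptor found on white blood cells. It averaged 4.90 ± 0.51 in antibiotics and 7.45 ± 1.14 in control distal tissue (SD, n = 4 each, difference -2.55, SE 0.55, limma's adjusted p = 0.0247). NFKBIA, an inhibitor that NF-kB itself induces, differed by -1.91 (SE 0.52, limma's adjusted p = 0.0742). The median of the 11 was -0.71 in distal and -0.14 in proximal tissue. In proximal tissue none passed and 2 had an unadjusted p under 0.05, against 12.9% of all probe sets.

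On the IL18 and inflammasome axis 6 of 22 genes were tested and none passed in either segment. An unadjusted p under 0.05 was found for 1 in distal (against 15.8% of all probe sets) and 0 in proximal tissue (against 12.9%). The medians were -0.42 in distal and -0.06 in proximal tissue. IL1R1, the interleukin 1 receptor, differed by -1.26 in distal (limma's adjusted p = 0.293) and 1.14 in proximal tissue (limma's adjusted p = 0.424). CASP1, the protease that cleaves the IL18 precursor, averaged 12.71 ± 0.41 in antibiotics and 12.17 ± 0.33 in control proximal tissue (0.54, SE 0.32, limma's adjusted p = 0.521).

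Of 40 other cytokines 7 were tested, and none passed for antibiotics against control in either segment, with 3 at an unadjusted p under 0.05 in distal (against 15.8% of all probe sets) and 0 in proximal tissue (against 12.9%) and medians of -0.80 in distal and 0.05 in proximal tissue. Between the segments of antibiotics piglets 2 of the 7 were lower in distal tissue, against 5.25% of all probe sets past the threshold: IL7, a lymphocyte survival factor (-2.94, SE 0.71, limma's adjusted p = 0.0241), and IL34, a macrophage growth factor (-2.06, SE 0.43, limma's adjusted p = 0.0106). Neither IL7 nor IL34 was above the filter level on any antibiotics distal array, so both were tested only because they were higher on other arrays. The filter favours such a count, which is thus no support for a fall of the list.

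Some neutrophil and macrophage markers were lower in antibiotics piglets where CXCL8 was lower. In whole tissue, fewer cells of a type and less RNA per cell cannot be told apart. Of 20 neutrophil markers 11 had a probe set and 2 were tested, S100A9 and NCF1, and both fell in distal tissue, where 2.12% of all probe sets passed. Neither was above the filter level on any antibiotics distal array, so both were tested only because they were higher on other arrays. The filter favours such a count, which is thus no support for a fall of the list. S100A9, a calcium-binding protein of neutrophils and monocytes, read 2.29, 2.28, 2.30 and 2.39 in antibiotics distal tissue, near the floor of the data, against 11.08, 6.20, 9.97 and 10.60 in control piglets 83, 88, 89 and 92 (limma's adjusted p = 0.00161). In proximal tissue S100A9 read 2.29, 2.28, 3.12 and 5.30 in antibiotics piglets 86, 87, 95 and 98, of which 3 lay under the filter level, against 6.68 to 10.91 in control piglets, and fell (limma's adjusted p = 0.0435), while NCF1 did not pass. The summed level of the neutrophil list ran from 5.88 to 6.04 in antibiotics and from 7.25 to 11.22 in control distal tissue. In proximal tissue it ran from 5.94 to 6.54 in antibiotics and from 7.62 to 10.99 in control piglets. The highest of these control sums were close to S100A9 alone, which reached 11.08 in distal and 10.91 in proximal tissue. Of the 11 genes summed, 7 were above the filter level on no control distal array. The granule genes ELANE and LTF were above the filter level on no array.

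Of 14 macrophage and monocyte markers 5 were tested and 2 fell in distal tissue, CD163 and C1QC, against the same 2.12% of all probe sets, while CD14 was under the filter level on every array. CD163 too was above the filter level on no antibiotics distal array, so the filter favours its count. The summed level of these markers ran from 9.47 to 10.48 in antibiotics and from 11.23 to 11.68 in control distal tissue. In proximal tissue none of the 5 passed, 2 had an unadjusted p under 0.05 (CD163 and MRC1, against 12.9% of all probe sets), and 3 were negative (against 56.8%). The proximal sums overlapped, at 10.15 to 11.67 in antibiotics and 10.90 to 12.05 in control piglets. The part of these cells in the CXCL8 difference was not tested. Of 17 T and NK cell markers 2 were tested, and none passed or had an unadjusted p under 0.05 in either segment. B cell markers were thinly measured: 3 of 14 were tested, none passed, and CD79B was dim on every array. In distal tissue 2 had an unadjusted p under 0.05, against 15.8% of all probe sets. The summed level of the B cell list ran from 10.87 to 11.58 in antibiotics and from 11.48 to 12.09 in control distal tissue. The part of B cells in the CXCL13 values was not tested. Enterocyte markers, 11 of 16 tested with none past the threshold for antibiotics in either segment, had summed levels of 17.42 to 17.56 in antibiotics and 17.28 to 18.06 in control distal tissue, and of 18.07 to 18.33 in antibiotics and 17.57 to 18.10 in control proximal tissue. In antibiotics piglets these sums did not overlap between the segments, and APOA4 was the 1 of 11 that was lower in distal tissue past the threshold. Their part in the CCL25 values was not tested.

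The control piglets differed among themselves in a way that ran through several members. Piglet 88 had the lowest CXCL8 of the controls in both segments, and the lowest readings at the middle and dimmest AMCF-II probe sets, S100A9 (6.20 in distal and 6.68 in proximal tissue) and CD163 (6.71 and 6.55). The same piglet had the highest CXCL13 and CCL25 of the controls in both segments. Piglet 92 had the highest CXCL8 of the controls in both segments, with TNF at 6.33 in distal tissue, the highest of all 16 arrays.

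The genes whose pattern over the 16 arrays was most like that of each member were found by Pearson correlation among 4683 other tested genes. The arrays share treatment, segment and piglets, so these values describe likeness only. CXCL8 was most like RGS4 (r = 0.938), CD163 (0.914) and S100A9 (0.901), and with group means removed these were 0.803, 0.728 and 0.648. AMCF-II at its brightest probe set was most like BACE2 (0.892), FCN2 (0.881) and the proximal factor GATA4 (0.849), for which the value with group means removed was 0.320.

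CXCL13 was most like ST6GAL1 (r = 0.80), DNASE2 (0.785) and EPB41L2 (0.780). CCL25 was most like TST (0.910), NTAN1 (0.902) and SNX24 (0.898), and IL18 was most like CDA (0.923), RABAC1 (0.892) and INPP5F (0.889). TNF was most like TMEM189 (0.83), R3HCC1L (0.805) and PELI1 (0.774), but TNF was within 0.05 of its lowest value on 12 of the arrays.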

How the data were processed

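The authors deposited 1 log2 value for each of 24123 Affymetrix probe sets on each array. The submitters' processing notes name GCOS 1.2, GCRMA and limma. No settings and no genome build are named in them. The lowest value is 2.14, and 39.7% of values lie under 2.5. Symbols came from the platform annotation: of the probe sets 10069 had 1 gene, 198 several and 13732 none, with 124 control probe sets left out. Where a gene has several probe sets, the brightest stands for it, and summed levels add the unlogged values of a list's annotated genes, dim ones included, and are given as log2.

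Group means were fitted in R 4.3.3 with limma 3.58.1 (lmFit, eBayes). Permutation tests were exact and two-sided, and 4 against 4 arrays cannot go below 0.0286. The script was tested on simulated data. The members and lists were chosen with earlier results of these data known. Named genes are the members, list genes past the threshold (or those with the largest moderated t), and the 3 most like genes, and others were named after their values were seen. Residuals of the 2 arrays of a piglet correlated at 0.0293 to 0.526, above 0.1 for 5 of 7, and samples were paired by the number in their names. P-values measure the spread between these piglets of 2 litters. Alternatives were filters, normalizations, variance models, array weights, subsets of arrays, blocks, RNA and segment covariates, probe set means and leaving out arrays.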

Additional observations from a re-analysis of the deposited data

Results flagged for a closer look

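Among 36 sets of 4 arrays (9 probe sets in 4 groups) 3 held an array set apart from its group, where chance sets apart about 1 in 20. All 3 were TNF readings in groups whose other arrays lay at the lowest value, 5.45: antibiotics distal piglet 85 at 5.61, antibiotics proximal piglet 87 at 5.48 and control proximal piglet 88 at 5.46. The other arrays of these groups were tied at that value, so any departure from it would be set apart. The rate of 1 in 20 does not hold for such ties.

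The distal minus proximal difference of CCL25 was larger in antibiotics than in control piglets, by -2.24 on the log2 scale (3 against 4 piglets, two-sided exact permutation p = 0.0286). It was the only one of the 9 probe sets under 0.05 in this permutation test, and limma's p adjusted over all probe sets was 0.169 on the same piglet differences and 0.479 over the 16 arrays.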

How the results depend on the processing

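The direction of the CXCL8 difference held in both segments and on piglet means under every alternative and with each array left out, and its distal call held in 11 of 13 alternatives. The number of the 6 genes past the threshold in distal tissue was 1, and it was 0 with no filter and with only piglets measured in both segments, 3 with array quality weights (CXCL8, AMCF-II and CCL25), and 0 to 1 with an array left out. Array quality weights also moved the count to 1 in proximal tissue (CXCL8), 1 for the difference between segments (CCL25), 1 between segments of controls (AMCF-II), 4 between segments of antibiotics piglets and 2 on piglet means (CXCL8 and CXCL13), at 1665 calls over all probe sets in distal and 951 in proximal tissue, against 245 and 17. Over the alternatives other than leaving out 1 array those calls ran from 138 to 1665 in distal and 0 to 951 in proximal tissue, from 9 to 210 for the difference between segments (22), from 0 to 80 between segments of controls (42) and from 0 to 3008 between those of antibiotics piglets (606). With 1 array left out they ran from 106 to 353 in distal tissue, from 2 to 556 in proximal tissue (556 without control piglet 88), from 10 to 44 for the difference between segments, from 25 to 77 between segments of controls and from 353 to 638 between those of antibiotics piglets. Leaving out an array gave 0 to 1 in proximal tissue, between segments of controls and on piglet means. Between segments of controls AMCF-II made the count 1 with trend and robust eBayes, with the animal as a random replicate block and with the RNA covariate (the 5′ minus 3′ difference of control probe sets). Between segments of antibiotics piglets the count of 2 became 1 with the mean of a gene's probe sets, and with the animal as a replicate block, random or fixed, it was 3, adding CXCL13, and with only the groups compared it was 3, adding IL18. Fits of only the groups compared do not exist for the difference between segments.

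An array's place between proximal and distal tissue was planned as a covariate without saying which probe sets define it. The first definition used 11 probe sets that differed between segments in both treatments. A second, from 123 probe sets with an average segment effect, was added after the values of the first were seen. Both are scaled by the segment means of these same arrays, which places proximal arrays near 0 and distal arrays near 1 by construction. Both left the distal count at 1 and gave 0 between segments of antibiotics piglets, where position and segment cannot be told apart.

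Differences that changed sign were past the threshold in neither fit, except that of AMCF-II between segments of antibiotics piglets with the mean of its probe sets (0.060, called at -1.41 with the brightest), which was 0.23 in controls. For the difference between segments, CXCL8 turned to 0.12 and IL18 to 0.063, both with only piglets measured in both segments and with 1 difference per animal, and CXCL13 (dimmer probe set) to 0.47 and IL18 to 0.18 with the RNA covariate. With the second axis position IL18 turned to 0.11 there, AMCF-II (middle probe set) to -0.92, CCL25 to 1.05, TNF to -0.51 and IL18 to 3.60 between segments of controls, and AMCF-II (middle probe set) to -1.07, CXCL13 (dimmer probe set) to -0.54, TNF to -0.87 and IL18 to 3.71 between segments of antibiotics piglets. TNF turned to -0.00051 in proximal tissue with array weights, and between segments of antibiotics piglets to -0.015 with equal array medians and -0.012 with only piglets measured in both segments and with the fixed block. With array weights AMCF-II (dimmest probe set) turned to -0.090 between those segments and CCL25 to 0.13 on piglet means, and with the first axis position CCL25 turned to 0.025 on piglet means. With an array left out, the difference between segments ran from -0.84 to 0.18 for CXCL8, from -1.16 to 0.67 and from -1.26 to 0.66 for the middle and the dimmest AMCF-II probe set, from -1.97 to 0.22 for the dimmer CXCL13 probe set and from -0.77 to 0.25 for IL18. TNF ran from -0.0046 to 0.0087 in proximal tissue and from -0.0087 to 0.046 between segments of antibiotics piglets, and CCL25 from -0.49 to 0.28 on piglet means. The cause of these changes was not tested.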
